A study of Mus musculus with 10 samples.

Results

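The 9 genes described here, *H2-K1*, *H2-D1*, *B2m*, *Psmb8*, *Irf7*, *Ifit1*, *Ifit3*, *Isg15* and *Bst2*, belong to MHC class I antigen presentation and to the interferon response. They were chosen by name, and all 9 were found among the 23197 genes of a single-cell RNA-seq table. The table follows mouse embryonic fibroblasts (MEFs), taken from outbred ICR embryos, while the small-molecule cocktail C6FAE (CHIR99021, the compound abbreviated 6, Forskolin, AM580 and EPZ004777) turned part of them into cells that resemble extraembryonic endoderm (XEN). Cells were picked by hand at 10 time points, d0, d1, d2, d3, d4, d5, d6p, d8, d12 and d20, where d0 cells are the starting MEFs, all later cells come from the cocktail course and the p of d6p is not explained. A further pair of groups, d8c and d12c, was picked from colonies of day 8 and day 12. No group had a culture without the cocktail at a later day, so the time in culture and the cocktail cannot be told apart.

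Infected or stimulated cells answer type I interferon through the receptor pair IFNAR1 and IFNAR2, the kinases JAK1 and TYK2 and a complex that contains IRF9, which binds interferon-stimulated response elements (ISREs) in target promoters. Type II interferon acts through IFNGR1, IFNGR2, JAK1 and JAK2 and induces IRF1, and both types raise MHC class I. Class I molecules, made of a heavy chain and β2-microglobulin, show peptides on the surface of nearly all nucleated cells, while early embryonic and extraembryonic cells are known for low levels of them.

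Of the 9 genes, *H2-K1* and *H2-D1* encode class I heavy chains and *B2m* encodes β2-microglobulin. *Psmb8* encodes the immunoproteasome subunit that replaces the constitutive subunit of *Psmb5*, and it prepares peptides for class I loading. *Irf7* encodes a transcription factor that amplifies type I interferon, and *Ifit1* and *Ifit3* encode proteins that act on foreign RNA. *Isg15* encodes a ubiquitin-like modifier and *Bst2* encodes tetherin, which holds enveloped viruses at the cell surface. On NCBIM37 (mm9), the build used by the authors, the genes lie at chr17:34132962-34137278 (*H2-K1*), chr17:35399675-35404444 (*H2-D1*), chr2:121973422-121978819 (*B2m*), chr17:34334666-34338399 (*Psmb8*), chr7:148448605-148452380 (*Irf7*), chr19:34715361-34724499 (*Ifit1*), chr19:34658021-34663221 (*Ifit3*), chr4:155573533-155574927 (*Isg15*) and chr8:74058163-74061336 (*Bst2*). All 9 are annotated as protein coding. Class I heavy chain genes are near-identical to each other, members of the Ifit family are related in sequence, and the reference differs in strain from ICR mice. The reads of *H2-K1*, *H2-D1*, *Ifit1* and *Ifit3* could therefore have been divided with their relatives, and the heavy chain genes *H2-L*, *H2-Q2*, *H2-Q6*, *H2-Q7* and *H2-T9* had no count in any cell used.

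The promoters of 6 of the genes are shown because they hold the letters that the interferon and class I genes are known for. They are the 250 bases before the annotated start, from RefSeq on GRCm38.p6, 5′ to 3′ along the gene. Their positions are on that build and cannot be set against the mm9 positions above. *H2-K1* has 2 annotated starts, and the window before the more upstream one was taken. Capitals mark matches on either strand to an ISRE, searched as GAAA, any 2 bases and GAAA, or to the core of the κB element of class I genes, searched as GGGATTCCC.
H2-K1 promoter, chr17:34000348-34000597, minus strand: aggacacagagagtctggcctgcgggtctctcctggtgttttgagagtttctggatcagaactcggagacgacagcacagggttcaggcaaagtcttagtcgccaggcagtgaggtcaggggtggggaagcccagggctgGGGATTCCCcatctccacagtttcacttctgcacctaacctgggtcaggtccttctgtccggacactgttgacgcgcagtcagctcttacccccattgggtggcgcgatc
H2-D1 promoter, chr17:35262844-35263093, plus strand: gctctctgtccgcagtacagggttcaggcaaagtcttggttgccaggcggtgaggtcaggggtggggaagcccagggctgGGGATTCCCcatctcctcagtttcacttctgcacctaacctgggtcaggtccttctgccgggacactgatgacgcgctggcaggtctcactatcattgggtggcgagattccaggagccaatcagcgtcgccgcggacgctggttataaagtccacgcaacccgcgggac
B2m promoter, chr2:122147437-122147686, plus strand: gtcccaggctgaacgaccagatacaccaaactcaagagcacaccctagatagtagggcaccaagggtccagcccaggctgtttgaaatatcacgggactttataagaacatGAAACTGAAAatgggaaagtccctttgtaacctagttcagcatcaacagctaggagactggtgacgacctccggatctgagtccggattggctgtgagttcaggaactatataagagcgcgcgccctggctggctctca
Isg15 promoter, chr4:156200819-156201068, minus strand: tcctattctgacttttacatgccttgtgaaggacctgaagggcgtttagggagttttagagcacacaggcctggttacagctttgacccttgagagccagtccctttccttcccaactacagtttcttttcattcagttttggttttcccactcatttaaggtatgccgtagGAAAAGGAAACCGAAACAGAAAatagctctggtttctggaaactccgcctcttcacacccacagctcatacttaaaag
Bst2 promoter, chr8:71537473-71537722, minus strand: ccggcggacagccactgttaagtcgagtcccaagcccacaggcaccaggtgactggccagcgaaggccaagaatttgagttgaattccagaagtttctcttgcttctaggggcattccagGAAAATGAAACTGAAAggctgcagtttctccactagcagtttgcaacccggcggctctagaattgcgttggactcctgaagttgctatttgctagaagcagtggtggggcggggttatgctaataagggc
Ifit1 promoter, chr19:34640639-34640888, plus strand: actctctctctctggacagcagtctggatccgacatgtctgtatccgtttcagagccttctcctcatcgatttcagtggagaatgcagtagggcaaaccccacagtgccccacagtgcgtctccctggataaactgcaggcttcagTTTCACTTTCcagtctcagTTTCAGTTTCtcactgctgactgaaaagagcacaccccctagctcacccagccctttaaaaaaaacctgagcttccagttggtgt
Both heavy chain genes carried the κB letters, starting 110 bases before the start in *H2-K1* and 170 bases before it in *H2-D1*, within a run of 47 bases that was identical between them. These letters were held by 99 of 32851 mouse promoters of this length (0.301%). The ISRE letters were found in 978 of the 32851 promoters (2.98%) and in 5 of the 9 genes. In *B2m* the match started 139 bases before the gene. In *Isg15* there were 3 matches, which overlap, at 78, 72 and 66 bases, and in *Bst2* an overlapping pair at 130 and 124 bases. *Ifit1* had a pair of separate matches at 104 and 85 bases, and *Ifit3*, not printed here, one at 156 and one at 122 bases. *Irf7* and *Psmb8* matched neither set of letters in this window, and the heavy chains had no exact match to the ISRE letters, which says only that these letters are not there and does not cover related interferon elements. Among the 35 further interferon-stimulated genes with a promoter in the table, 16 (45.7%) held the ISRE letters. A match describes the sequence and not binding of a factor.

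The table gave, for 808 cells, how many RNA molecules of each gene were read, told apart by molecular tags (UMIs). The 670 cells with at least 4000 detected genes were used, from 20 cells at d8c to 86 at d6p. Depth was lowest at d20, with a median of 195480 UMIs, and highest at d2, with 1055206 UMIs. The UMIs of a gene were divided by the total of the cell without spike-in RNAs and scaled to CPM, the usual counts per 1000000, so levels are compared within a gene and not between genes. The series lists 10 samples of the C6FAE course, but the cell names give only a group and a running number and could not be matched to them. All cells were therefore treated as 1 sample, groups have no replicates, and differences between groups were described without a statistical test. A batch and a time point cannot be told apart. Intervals are exact 95% intervals, Poisson for UMIs and Clopper-Pearson for shares of cells, and cover counting error only.

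Marker genes were summed to check the cells against their labels. The 10 fibroblast markers summed to 3748 CPM at d0 and to 12517 CPM at d12, but to 268 CPM at d20. The 10 XEN markers summed to 67.6 CPM at d0 and to 1517 CPM at d20. The group d12c did not stand as one: its 21 cells numbered 1 to 48 had 7546 CPM of fibroblast markers and 425 CPM of XEN markers, whereas its 30 cells numbered 49 to 96 had 317 and 1198 CPM. The comparison within d12c below is therefore made by number range, and other d12c values hold both ranges. Immune cells could bring interferon-response RNA, so their markers were summed as well. The 11 measured macrophage markers summed to between 6.26 and 29.7 CPM over the groups. *Cd68* was found in 253 cells, with its highest mean at d8c (21.6 CPM), and *Csf1r* in 129 cells, highest at d12c (13.4 CPM). *Ptprc* was found in 1 cell of d0, *Adgre1* in 1 cell of d4 and *C1qa* in 2 cells. T, B and NK cell markers summed to at most 12.8 CPM, at d12c. Endothelial markers summed to 7.43 CPM at d0 and 42.1 CPM at d12, and erythroid markers to at most 0.255 CPM. The part of such cells in the levels below was not tested, and fewer expressing cells and less RNA per cell cannot be told apart in a group mean.

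**Figure D1:**
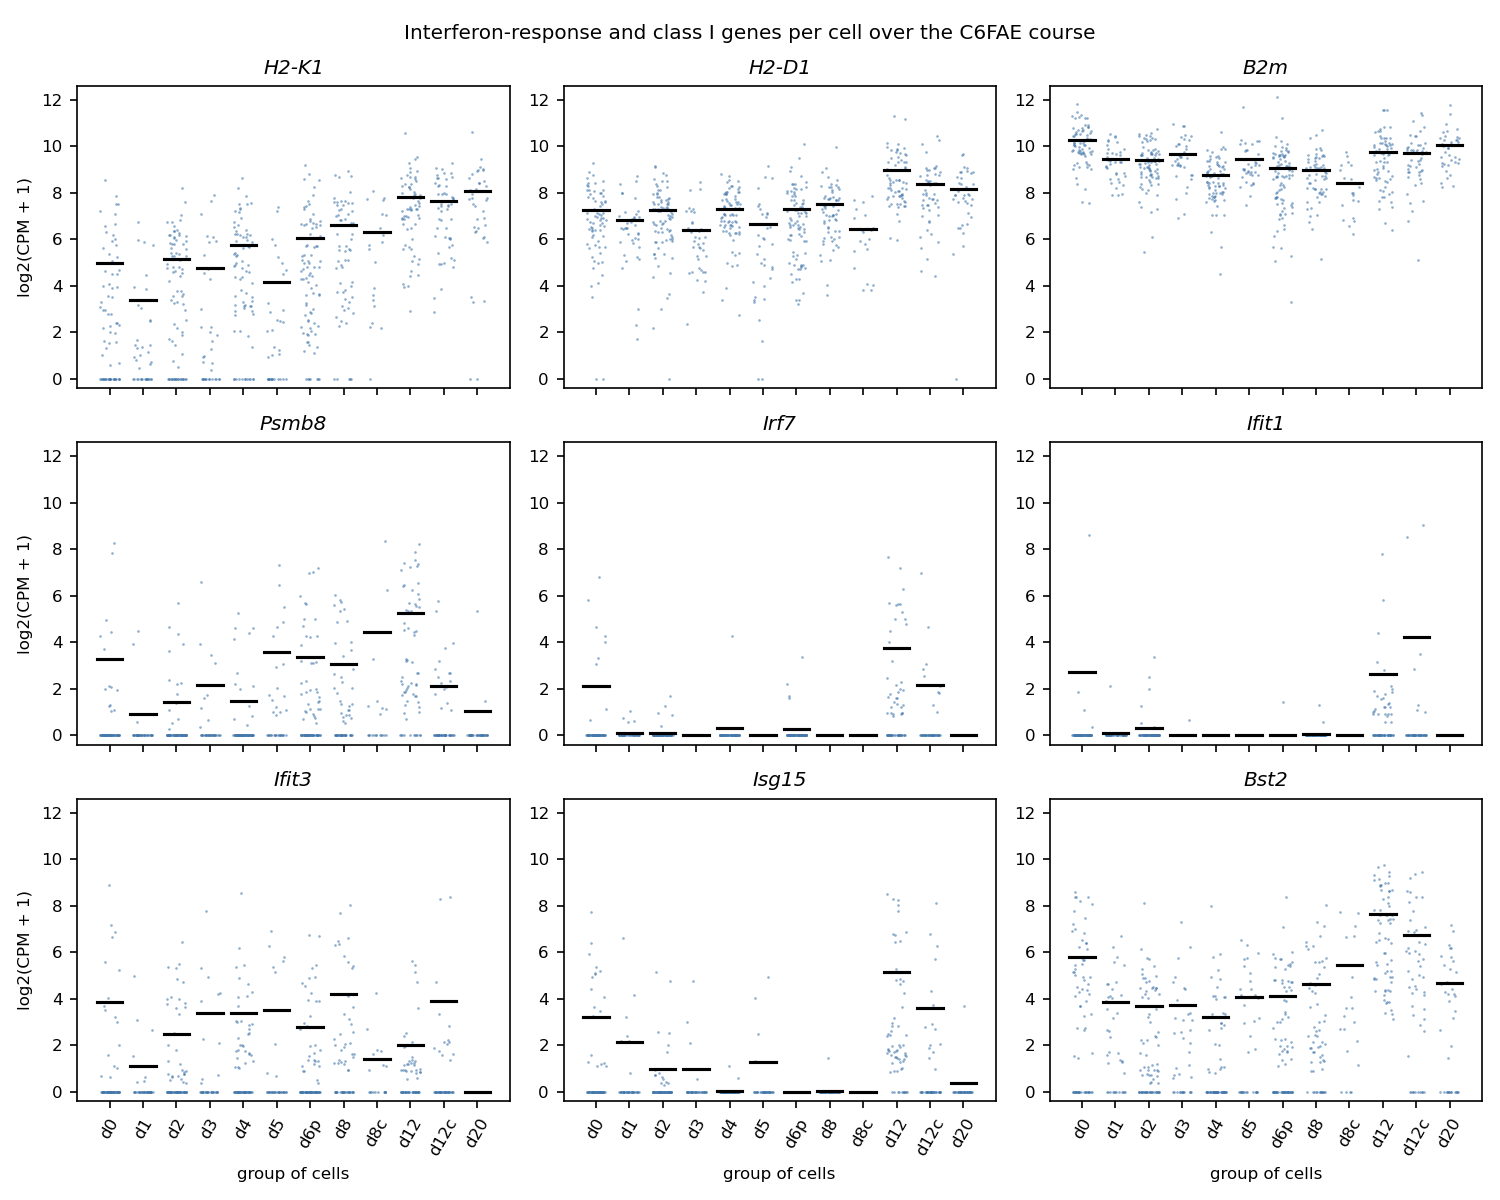
Level of each of the 9 genes, as log2(CPM + 1) on the vertical axis, in the 670 cells used, by group on the horizontal axis. Each point is a cell and each bar is log2 of the group's mean CPM plus 1. *B2m* and *H2-D1* had UMIs in nearly all cells throughout, and *H2-K1* filled in toward d12. No cell from d1 to d8c reached 20 CPM of *Irf7* or *Ifit1*, and *Isg15* was nearly empty at d4 and from d6p to d8c.

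The heavy chain *H2-K1* went from a patchy to a near-general transcript over the course. At d0 its lowest, median and highest levels over 72 cells were 0, 3.92 and 381 CPM. At d12 they were 6.61, 158 and 1538 CPM over 67 cells, and at d20 they were 0, 211 and 1561 CPM over 38 cells. The d0 and d12 ranges overlapped, but cells with at least 20 CPM, a level that a single UMI gives in the 23 cells with under 50000 UMIs, made up 21 of 72 at d0 (29.2%, interval 19.0% to 41.1%) and 63 of 67 at d12 (94.0%, 85.4% to 98.3%). In cells thinned to 50000 UMIs, which removes the differences in depth, 36.6% of d0 cells, 92.4% of d12 cells and 88.9% of d20 cells had a UMI. The mean was 30.4 CPM at d0, 96.7 CPM at d8, 226 CPM at d12 and 266 CPM at d20.

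Before d8 the group mean of *H2-K1* alternated with the sampling day. Its mean was 9.44 CPM at d1, 26.0 CPM at d3 and 16.9 CPM at d5. In the groups between them it was 34.5 CPM at d2, 53.5 CPM at d4 and 65.1 CPM at d6p. Cells with at least 20 CPM made up 24 of 114 (21.1%, interval 14.0% to 29.7%) at d1, d3 and d5 together, and 128 of 246 (52.0%, 45.6% to 58.4%) at d2, d4 and d6p. The groups d1, d3 and d5 hold running numbers from 1 to 48 alone, and within these numbers the share at d2, d4 and d6p was 58 of 126 (46.0%). By group means *H2-D1* had 113, 83.6 and 99.5 CPM at d1, d3 and d5 against 155, 159.8 and 158 CPM at d2, d4 and d6p. Within numbers 1 to 48 the alternation was not complete, since d2 cells averaged 18.5 CPM of *H2-K1*, below d3, and 112 CPM of *H2-D1*, below d1. In these numbers *H2-T10* had 2.41, 3.90 and 2.03 CPM at d1, d3 and d5 against 5.77, 12.3 and 10.7 CPM at d2, d4 and d6p, whereas *H2-T23*, with 6.61, 7.95 and 3.62 CPM against 7.65, 5.44 and 6.57 CPM, did not alternate. Running numbers also differed within a group, since *H2-K1* averaged 17.5 CPM in d0 cells numbered 1 to 48 and 49.6 CPM in those numbered 49 to 96. What the number ranges stand for is not stated, and their part in the alternation was not tested.

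The second heavy chain, *H2-D1*, was measured in nearly every cell from the start. Its lowest, median and highest levels were 0, 119 and 631 CPM at d0, 61.4, 354 and 2535 CPM at d12, and 0, 242 and 823 CPM at d20. All 67 d12 cells lay above 20 CPM, and so did 67 of 72 d0 cells. From d1 to d8c the group mean moved between 83.6 CPM at d3 and 182 CPM at d8, around the 153 CPM of d0. The day 12 mean of 500.1 CPM was the highest of the course, ahead of d12c (331 CPM) and d20 (287 CPM).

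*B2m*, the shared light chain, took a different course and was highest at d0. Its lowest, median and highest levels were 188, 1078 and 3632 CPM at d0, 84.9, 801 and 3049 CPM at d12, and 303, 980 and 3557 CPM at d20. These ranges overlapped almost whole. The mean went from 1239.5 CPM at d0 to 344 CPM at d8c, and was 873 CPM at d12 and 1061 CPM at d20. The groups d1, d3 and d5, in which *H2-K1* was low, had *B2m* means of 699, 826 and 699 CPM, all above the 677, 432 and 534 CPM of d2, d4 and d6p.

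The immunoproteasome subunit gene *Psmb8* was at 0 in most cells until d12. Its lowest, median and highest levels were 0, 0 and 313 CPM at d0, and 0, 5.38 and 297 CPM at d12. At d20 it was found in 2 of 38 cells, which held 11 UMIs (interval 5.49 to 19.7). Cells with at least 20 CPM were 4 of 72 at d0, 27 of 67 at d12 (40.3%, interval 28.5% to 53.0%) and 1 of 38 at d20. Its d0 mean of 8.87 CPM rested on few cells, since without the highest cell it was 4.59 CPM and it was 1.35 CPM in cells numbered 1 to 48. At d8c 1 of 20 cells gave 78.1% of the mean of 20.8 CPM.

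*Bst2* had a UMI in more cells than *Irf7*, *Ifit1*, *Ifit3* or *Isg15* in each group except d4, where *Ifit3* had one in 34 cells and *Bst2* in 29. Its lowest, median and highest levels were 0, 15.3 and 387 CPM at d0, 7.81, 95.7 and 857 CPM at d12, and 0, 12.0 and 143 CPM at d20. Every d12 cell had a UMI of *Bst2*, as against 47 of 72 at d0 and 24 of 38 at d20. Its mean was 54.4 CPM at d0, lay between 8.30 CPM (d4) and 42.8 CPM (d8c) from d1 to d8c, and was 202 CPM at d12 and 24.7 CPM at d20. Cells with at least 20 CPM made up 44.4% at d0 and 80.6% at d12.

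*Isg15* was sparse at d0, nearly without UMIs at d4 and from d6p to d8c, and more widely found at d12. At d0 its lowest, median and highest levels were 0, 0 and 213 CPM, with 284 UMIs in all, and at d12 they were 0, 2.51 and 367 CPM, with 2381 UMIs. In between, d1 held 306 UMIs, d2 185, d3 107 and d5 61, whereas d4 held 3, d8 held 1 and d6p and d8c held none. Cells with at least 20 CPM were 9 of 72 at d0, 5 of 442 from d1 to d8c, 17 of 67 at d12 (25.4%, interval 15.5% to 37.5%) and 0 of 38 at d20, which allows a share of up to 7.89%.

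The regulator gene *Irf7* had its highest means in the same groups as *Isg15*, d12, then d12c, then d0, with fewer molecules. The order of the lower groups differed. It had 230 UMIs at d0, 42 UMIs in the 442 cells from d1 to d8c, 960 UMIs at d12 and none at d20. Its lowest, median and highest levels were 0, 0 and 111 CPM at d0 and 0, 0.876 and 204 CPM at d12. A level of at least 20 CPM was reached in 3 of 72 d0 cells, in none of the 442 cells and in 12 of 67 d12 cells (17.9%, interval 9.61% to 29.2%).

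*Ifit1* reached 20 CPM in 5 cells of the whole course, and single cells set its means. At d0 1 cell of 72 held 99.0% of the summed level, and without it the mean of 5.53 CPM was 0.0560 CPM. Between d1 and d8c 61 UMIs were counted and no cell passed 9.24 CPM. At d12 2 of 67 cells reached 20 CPM, and without the highest cell the mean of 5.19 CPM was 1.90 CPM.

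*Ifit3*, its neighbour on chromosome 19, had a different order of groups. It was highest at d8, with a mean of 17.5 CPM and 10 of 62 cells at 20 CPM or more, and its means were 13.6 CPM at d0 and 3.07 CPM at d12. Of the 45 cells from d1 to d8c with 20 CPM or more of *Irf7*, *Ifit1*, *Ifit3* or *Isg15*, 40 had *Ifit3* and 5 had *Isg15*. No *Ifit3* UMI was counted in the 38 cells of d20. Single cells weighed here too, since 1 cell gave 48.4% of the d0 level and 51.8% of the d4 level.

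When the 12 groups were ordered by their mean, most neighbours in the order were close. The median of the next lower group lay within the quartiles of the group above it for 10 of 11 neighbours in *H2-K1*, *B2m* and *Isg15*, for 9 of 11 in *H2-D1* and *Psmb8*, and for all 11 in *Irf7*, *Ifit1*, *Ifit3* and *Bst2*, many of whose medians are 0. The highest mean lay at d12 for 5 genes, *H2-D1*, *Psmb8*, *Irf7*, *Isg15* and *Bst2*. *H2-K1* was highest at d20, *B2m* at d0, *Ifit1* at d12c and *Ifit3* at d8.

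Differences between time points were read over all genes with a mean of at least 5 CPM in either group, on the scale of log2(mean CPM + 1), which understates the change of low genes. A gene was counted as higher or lower where this scale differed by more than 1, that is 2-fold. On the first day of the cocktail most of the genes were lower. Against d0, 6 of the 8 genes that passed the filter were lower at d1 and none was higher, where 11.7% of the 9514 genes compared were lower and 9.75% were higher. The 6 genes were *H2-K1*, *Psmb8*, *Ifit1*, *Ifit3*, *Isg15* and *Bst2*, and their median with the remaining 2 was -1.75, beside 0.02 over all genes compared. *Bst2* was 3.97-fold lower and *H2-K1* 3.23-fold lower. *Isg15* is uncertain, since its log2 difference of -1.11 became 0.14 when UMIs were summed over the cells of a group instead of averaging CPM, and 0.11 with TMM scaling. For *Ifit1* the difference of -2.59 was -0.08 without the highest cell of each group. In cells numbered 1 to 48 alone, *Ifit1*, *Ifit3* and *Bst2* were lower, and *H2-K1* (-0.83), *Psmb8* (-0.30) and *Isg15* (-0.85) were not past 2-fold.

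At d8 *H2-K1* was above its d0 level and *B2m* below it. *H2-K1* was 3.17-fold higher than at d0, the single gene of 8 to be higher, where 18.6% of 9928 genes were higher. *B2m* was 2.48-fold lower and *Bst2* 2.27-fold lower, and *Ifit1* and *Isg15*, with 2 UMIs and 1 UMI left at d8, were lower too. The lower call of *Ifit1* rests on a single d0 cell, which held nearly all of its d0 level. The 4 lower genes of 8 stand beside 14.9% of all genes lower. *H2-D1*, *Psmb8* and *Ifit3* differed by less than 2-fold, with log2 differences of 0.24, -0.25 and 0.34.

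By d12, in cells that were not picked from colonies, most of the 9 genes stood above d0. *H2-K1* was 7.42-fold higher, *H2-D1* 3.26-fold, *Psmb8* 4.27-fold, *Irf7* 3.72-fold, *Isg15* 4.14-fold and *Bst2* 3.71-fold. These 6 of 9 genes compare with 19.3% of the 9942 genes compared that were higher, and the median over the 9 was 1.70 beside -0.14 over all. *Ifit3* was the 1 gene lower, at a log2 difference of -1.84, where 19.3% of genes were lower, and *B2m* (-0.51) and *Ifit1* (-0.08) differed by less than 2-fold. The lower call of *Ifit3* was lost with UMIs summed over cells, where its log2 difference was -0.97, and *Ifit1* stood at 1.46 without the highest cell of each group. With TMM scaling, which moved the median of all genes from -0.14 to 0.05, 6 of the 9 genes were higher. In d12 cells the fibroblast markers were also high, at 12517 CPM, and 6 of these 10 markers were higher than at d0 and none was lower. Of the endothelial and XEN markers compared, 2 of 2 and 4 of 5 were higher as well. The endothelial genes *Kdr* and *Cldn5* and the XEN genes *Sox17*, *Gata4* and *Lama1* passed the filter through d12 alone. They could not be counted as lower. The other endothelial markers stayed below 5 CPM in both groups, with *Tek* at 3.55 CPM at d0 and 0.222 CPM at d12. The part of these markers' cells in the difference was not tested.

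At d20, when the cells carried XEN markers, class I heavy and light chains stayed within 2-fold of d12 while *Irf7*, *Ifit1*, *Ifit3* and *Isg15* were at or near 0 and *Bst2* was lower. Compared with d12, 5 of 8 genes were lower, *Psmb8*, *Irf7*, *Ifit1*, *Isg15* and *Bst2*, and none was higher, where 22.9% of the 10441 genes compared were lower and 30.8% were higher. Of these genes, *Psmb8*, *Irf7*, *Ifit1* and *Isg15* passed the filter through d12 alone and could not be counted as higher. *Bst2* was 8.15-fold lower and *Psmb8* 34.6-fold lower. *Irf7*, with no UMI at d20, was at least about 36.8-fold lower when 3 UMIs over the group are taken as the limit of detection. On the same limit *Ifit1* was at least about 15.2-fold lower. The bound for *Ifit1* rests on 2 d12 cells, which averaged 139 CPM, while the other 65 averaged 1.08 CPM. *Isg15* went from a mean of 34.6 CPM to 0.314 CPM, which rested on 3 UMIs in 1 cell. *H2-K1* (log2 difference 0.23), *B2m* (0.28) and *H2-D1* (-0.80) were not past 2-fold. This comparison moved with scaling: TMM factors took the median of all genes from 0.32 to -0.16, and the log2 differences to -0.57 for *H2-K1*, -0.26 for *B2m* and -1.26 for *H2-D1*, so the direction of the first pair and the call of *H2-D1* depend on it. Of the genes past 2-fold in either direction, 57.3% were higher as first scaled, 39.8% with TMM and 44.6% with DESeq2 size factors.

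Against the starting MEFs, d20 cells had more *H2-K1*. *H2-K1* was 8.74-fold higher, the 1 gene of 8 that was higher, beside 23.2% of the 10157 genes compared, and *H2-D1* differed by 0.90 and *B2m* by -0.22 on the log2 scale. *Psmb8*, *Ifit1*, *Ifit3*, *Isg15* and *Bst2* were lower, 5 of 8 beside 19.1% of all genes. Of these, all but *Bst2* passed the filter through d0 alone and could not be counted as higher. The count of lower genes was 3 without the highest cell of each gene, 1 with a pseudocount of 10 and 0 with the mean of log2 values, and for *Ifit1* a single d0 cell held the level. *Ifit3*, with no UMI in the 38 cells, was at least about 39.9-fold lower, and *Bst2* was 2.20-fold lower. *Psmb8* depended on the cells of d0, since its log2 difference of -2.24 was 0.024 in cells numbered 1 to 48. With TMM the share of higher genes among those past 2-fold went from 54.8% to 42.2%. These comparisons share d0 or d12 cells and are not independent of each other.

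The day 12 colony cells showed a like division within one group. The 30 cells numbered 49 to 96 were set against the 21 numbered 1 to 48, a comparison chosen after their marker levels were seen. In the later numbers 6 of 9 genes were lower and none was higher, where 24.7% of the 10181 genes compared were lower and 22.9% were higher. Of the lower genes, *Psmb8*, *Irf7*, *Ifit1*, *Ifit3* and *Isg15* passed the filter through the early numbers alone and could not be counted as higher. *Isg15* had a mean of 27.4 CPM in the early numbers and no UMI in the later ones, and *Irf7* (8.59 CPM) and *Ifit1* (43.5 CPM) were likewise without a UMI there. *Psmb8* went from 7.89 CPM to 0.159 CPM and *Ifit3* from 32.3 to 0.839 CPM. Much of these levels lay in the cells numbered 10 and 17, which held 97.8% of the *Ifit1*, 70.4% of the *Irf7*, 66.8% of the *Isg15* and 49.5% of the *Ifit3* of the early numbers. Without both cells the early means were 1.06 CPM for *Ifit1*, 2.81 CPM for *Irf7*, 10.1 CPM for *Isg15* and 18.0 CPM for *Ifit3*, and 4 genes were lower, *Psmb8*, *Ifit3*, *Isg15* and *Bst2*. *Bst2* was 6.32-fold lower, at 33.5 CPM against 212 CPM. *H2-K1*, by contrast, had 216 CPM against 174 CPM, *H2-D1* 302 CPM against 372 CPM and *B2m* 919 CPM against 739 CPM, none past 2-fold. With UMIs summed over cells *H2-D1* was past 2-fold (log2 difference -1.08) and *H2-K1* (-0.13) and *B2m* (-0.21) turned below 0. Fibroblast markers were also lower in the later numbers (9 of 10 past 2-fold) and XEN markers higher (7 of 10, with 1 lower), macrophage markers summed to 9.15 CPM against 50.0 CPM, and the median depth was 276240 UMIs against 416789. Running number, depth and cell identity cannot be told apart here.

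**Figure D2:**
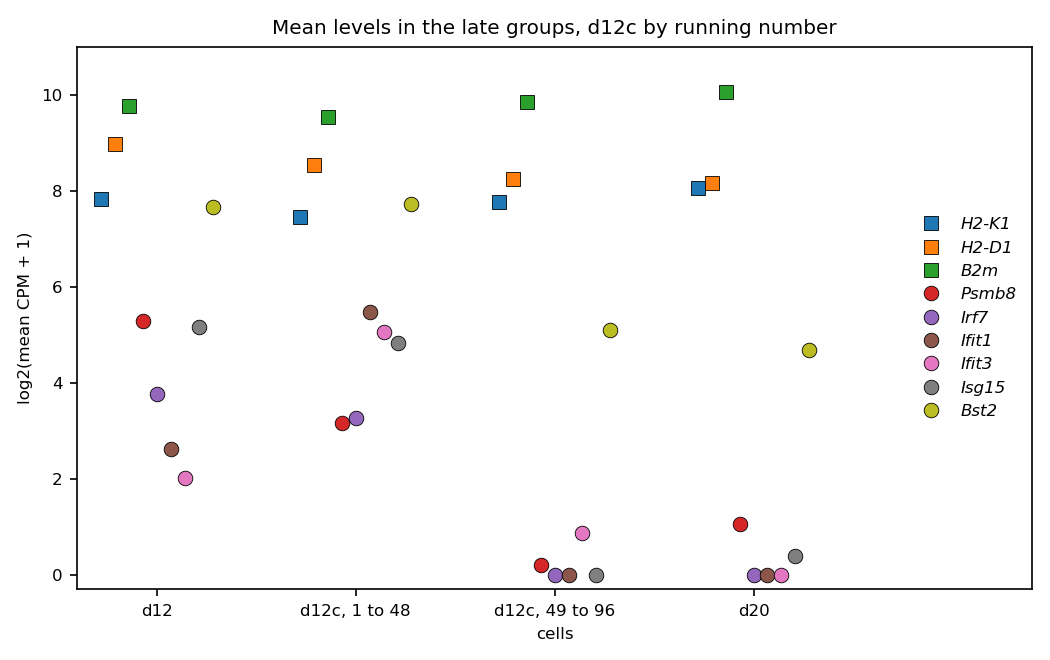
Mean level of the 9 genes, as log2(mean CPM + 1) on the vertical axis, in d12 cells, in d12c cells by running number and in d20 cells. Squares mark *H2-K1*, *H2-D1* and *B2m*, which stayed between 174 and 1061 CPM in all 4 sets of cells, and circles the other genes, of which *Irf7* and *Ifit1* had no UMI in the later d12c cells and in d20 cells.

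The interferon-stimulated genes were unevenly spread over the cells of a group. Cells were counted by how many of *Irf7*, *Ifit1*, *Ifit3* and *Isg15* reached 20 CPM. At least 1 of the 4 did so in 16 of 72 d0 cells (22.2%), in 45 of 442 cells from d1 to d8c (10.2%), in 24 of 67 d12 cells (35.8%) and in none of 38 d20 cells. At least 2 did so in 1 cell at d0, in none of the 442 cells, in 8 cells at d12, in 2 cells at d12c and in none at d20.

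**Figure D3:**
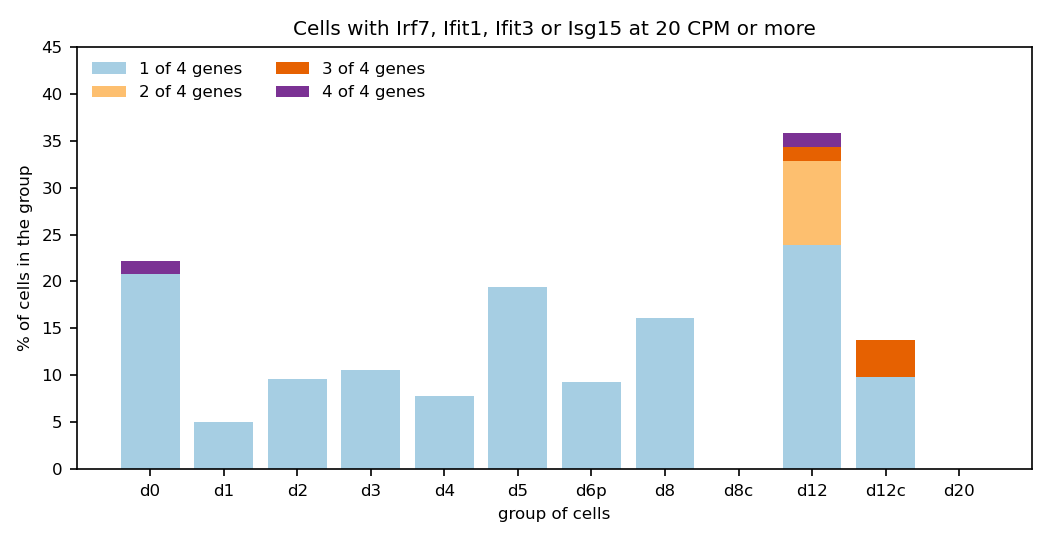
Share of cells in each group (vertical axis, percent) in which 1, 2, 3 or 4 of *Irf7*, *Ifit1*, *Ifit3* and *Isg15* reached 20 CPM. Cells with 2 or more were found at d0 (1 cell), d12 (8 cells) and d12c (2 cells), and no bar stands at d8c or d20.

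The cell at d0, numbered 29, held all of them together, with 394 CPM of *Ifit1*, 84.4 CPM of *Isg15*, 55.0 CPM of *Irf7*, 36.9 CPM of *Ifit3* and 328 CPM of *Bst2*. In this cell 12 of the 48 other interferon-stimulated genes measured reached 20 CPM, where the median d0 cell had 6. At d12 the cell numbered 70 had 222 CPM of *Ifit1*, 305 CPM of *Isg15*, 204 CPM of *Irf7*, an *Ifit3* level above 20 CPM and 857 CPM of *Bst2*, with 29 of the 48 other genes at 20 CPM or more against a median of 7. At d12c the cells numbered 10 and 17 had 366 and 527 CPM of *Ifit1*. Cell 10 had 24 of the 48 other genes at 20 CPM and cell 17 had 11, where the d12c median was 5. The class I genes of these cells were not all high, as *H2-K1* had 3.02 CPM in the d0 cell, 359 CPM in the d12 cell, 629 CPM in cell 10 of d12c and 13.5 CPM in cell 17. *B2m* had 3632 CPM in the d0 cell, the highest of its group.

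Low levels were also found in other d12 cells. For *Isg15*, 17 cells at 20 CPM or more averaged 129 CPM, and 39 of the 50 others had a UMI, with a median of 1.94 CPM over the 50, or 1.51% of the level in the high cells. For *Psmb8* the same ratio was 2.56% over 40 cells. Of *Irf7*, *Ifit1* and *Ifit3* the median low cell had none, and 24 of 55, 27 of 65 and 28 of 63 low cells had a UMI. The XEN gene *Sox17*, high in 11 d12 cells, stood at 1.15% of their level in the other 56, and *Dab2* at 1.25% in 49. Of the other XEN markers, *Gata6* stood at 1.45%, *Lama1* at 1.08% and *Gata4* at 0.285%. For *Sox7*, *Foxa2*, *Sall4*, *Cubn* and *Amn* the median low cell had none. The part of RNA carried over between cells in these low levels was not tested. The counts of cells with at least 20 CPM do not include these levels.

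Levels of the 9 genes were set against each other from cell to cell. Spearman correlations over the 67 cells of d12, which share depth and library, ran from -0.157 to 0.732 over the 36 pairs, with a median of 0.220 and 34 pairs above 0. Over all pairs of the 8884 genes with a mean of at least 5 CPM in these cells the median was 0.029, and 58.5% of pairs were above 0. The highest were *H2-K1* with *H2-D1* (0.732), *B2m* with *Bst2* (0.617) and *B2m* with *H2-D1* (0.535). *Isg15* with *Bst2* had 0.458. At d0 the median over 36 pairs was 0.100 and the highest value 0.403, and at d8 the median over 28 pairs was 0.0025, while the medians over all pairs were 0.055 and 0.065. At d20 the median over 15 pairs was 0.104, with 11 above 0, and that over all pairs was 0.020, with 54.6% above 0. The highest d20 value, 0.717 for *Psmb8* with *Isg15*, rests on very few cells, since *Isg15* was found in 1 d20 cell. Both genes had d20 means below the 5 CPM asked of the genes in all pairs, so their pairs say little. In d12 cells numbered 1 to 48 and 49 to 96 the medians were 0.217 and 0.284.

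Other genes of class I presentation showed no common direction at d12. The list held 31 genes, of which 27 are not among the 9 described. At d12 against d0, 14 of the 27 passed the filter, 5 were higher and 1 was lower, with a median of -0.23 beside -0.14 over all genes, of which 19.3% were higher and 19.3% lower. The higher genes were *H2-Q4*, *H2-T10*, *Tap2*, *Tapbp* and *Psmb9*. Of these, *H2-Q4*, *Tap2* and *Psmb9* passed the filter through d12 alone and could not be counted as lower. *Psmb9*, the second immunoproteasome subunit, had means of 0.286 CPM at d0, 5.35 CPM at d12 and 0.362 CPM at d20, with its highest group at d12 as for *Psmb8*. *Psmb10*, the third, did not follow them, with 41.1 CPM at d0, 24.1 CPM at d12 and 28.7 CPM at d20. *Tapbp* encodes tapasin, which holds empty class I molecules at the peptide transporter, and had 21.9, 50.7 and 21.5 CPM. The lower gene was *H2-T23*, a nonclassical heavy chain, with 12.7 CPM at d0 and 5.11 CPM at d12. The transporter subunit gene *Tap1* (6.52 CPM at d0 and 5.03 CPM at d12), the proteasome activator genes *Psme1* (51.4 and 52.7 CPM) and *Psme2* (214 and 179 CPM) and the chaperone gene *Calr* (765 and 530 CPM) were not past 2-fold. *Nlrc5*, the known transactivator of class I genes, was at or below 1.53 CPM in every group and at 0 in d0, d12, d12c and d20 cells.

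The constitutive proteasome served as a comparison for *Psmb8* and *Psmb9*. Its 14 genes all passed the filter, and at d12 against d0 none was higher and 1 was lower, with a median of -0.53. Of all genes compared, 19.3% were higher and 19.3% lower. *Psmb5*, whose product *Psmb8* replaces, had 340 CPM at d0, 315 CPM at d12 and 404 CPM at d20. At d20 against d12 3 of the 14 were higher and none was lower, with a median of 0.78, where 30.8% of all genes were higher and 22.9% lower. In this comparison *Psmb8* differed by -4.21, *Psmb9* by -2.22 and *Psmb10* by 0.24.

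Of the interferon-stimulated effectors beyond the 9 genes, more were lower than higher at d1 and at d20, and more were higher than lower at d12, each against the comparison group named. Of 54 listed genes 53 were measured, 48 of them not among the 9, and some of them, such as *Irf9*, are also in the signalling list below. At d1 against d0, 12 of the 20 that passed the filter were lower and 1 was higher, with a median of -1.26. Of all genes compared, 11.7% were lower and 9.75% higher. *Xaf1* had 119 CPM at d0 and 7.87 CPM at d1, and *Oasl1*, the gene that was higher, had 2.37 and 25.7 CPM. At d8 against d0, 8 of 20 were lower and 2 were higher, with a median of -0.69, where 14.9% of all genes were lower and 18.6% higher. At d12 against d0, 9 of 26 were higher and 2 were lower, with a median of 0.70, where 19.3% of all genes were higher and 19.3% lower. Among the higher genes *Oasl2*, *Rtp4*, *Trim30a* and *Ifi203* passed the filter through d12 alone and could not be counted as lower. The largest differences were those of *Ifitm1* (9.14 and 174 CPM), *Lgals3bp* (7.78 and 138 CPM) and *Ifi203* (1.23 and 33.7 CPM). *Xaf1* and *Samd9l* were the 2 lower genes.

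At d20 against d12, 18 of 24 effectors were lower and 1 was higher, with a median of -1.94 beside 0.32 over all genes. Of all genes compared, 22.9% were lower and 30.8% higher. Some of the lower effectors, such as *Usp18*, *Rtp4*, *Ifi203* and *Lgals3bp*, passed the filter through d12 alone and could not be counted as higher. *Lgals3bp* went to 3.33 CPM and *Ifi27* from 175 to 4.22 CPM, and no UMI of *Ifi203* was counted at d20. The one higher gene was *Ifitm1*, which encodes a membrane protein against virus entry that is also known from germ and stem cells, with 174 CPM at d12 and 704 CPM at d20. Its relatives *Ifitm2* (1557 and 574 CPM) and *Ifitm3* (2003 and 637 CPM) were lower. In the later d12c cells *Ifitm1* was likewise the only higher gene of the 25 that passed the filter, at 771 CPM against 353 CPM. There 17 were lower, of which only *Ifit2*, *Ifi27*, *Xaf1*, *Lgals3bp* and *Irgm1* reached 5 CPM in the later cells. The other lower genes could not be counted as higher. Beside these counts, 24.7% of all genes were lower there and 22.9% were higher.

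**Figure D4:**
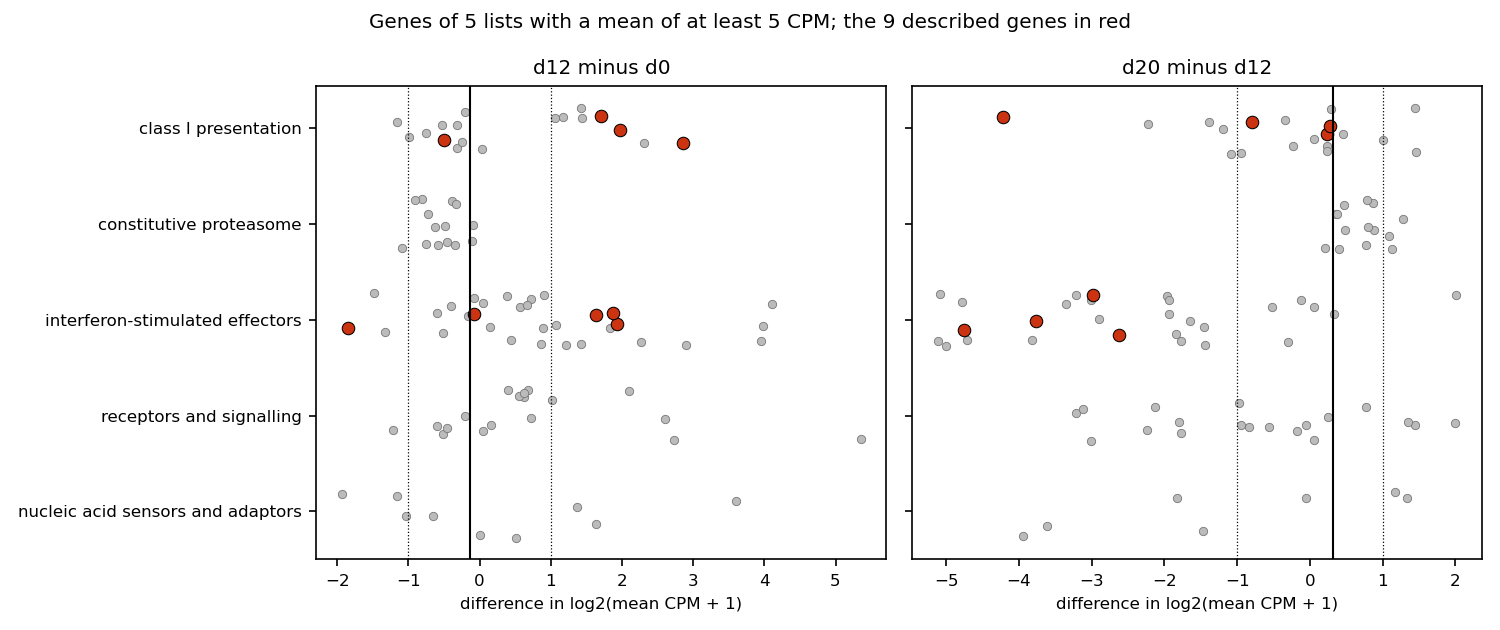
Difference in log2(mean CPM + 1) of the genes of 5 lists with a mean of at least 5 CPM in either group, for d12 minus d0 (left) and d20 minus d12 (right). Each circle is a gene, red for the 9 genes described, the solid line is the median of all genes compared (-0.14 and 0.32) and the dotted lines mark 2-fold. At d20 minus d12 the effectors lie mostly left of the dotted line, whereas the proteasome genes lie right of 0.

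The interferon receptors and their signalling genes were measured throughout, while the ligands were not. Of 19 interferon ligand genes in the table, 16 had no UMI in the 670 cells, *Ifnb1* among them, and the other 3 had 110 UMIs in all. *Ifnk*, an interferon of keratinocytes, had its highest mean at d12c with 3.47 CPM, and *Ifng* was found at d4 alone. In the receptor and signalling list of 21 genes, 5 of 18 compared were higher at d12 than at d0 and 1 was lower, with a median of 0.58. Of all genes, 19.3% were higher and 19.3% lower. *Ifnar1* had 36.8 and 75.7 CPM, *Ifnar2* 33.8 and 148 CPM, and *Irf2*, a factor that binds the same letters as IRF1, 8.35 and 56.0 CPM. *Irf9* (8.77 and 15.2 CPM) was not past 2-fold.

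At d8 against d0, 5 of 18 signalling genes were higher and 1 was lower, with a median of 0.16, where 18.6% of all genes were higher and 14.9% lower. At d20 against d12, 7 of 19 were lower and 3 higher, where 22.9% of all genes were lower and 30.8% higher. Among the lower genes were *Jak1* (from 185 to 38.5 CPM), *Ifnar1* (21.1 CPM), *Ifnar2* (33.1 CPM) and *Irf9* (3.71 CPM). The 3 higher genes were *Tyk2* (from 2.59 to 13.3 CPM), *Irf3* (from 31.7 to 88.1 CPM) and *Pias1*. *Ifngr1* and *Ifngr2*, the type II receptor, had 30.2 and 83.2 CPM at d20 and were not past 2-fold from d12.

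The feedback inhibitors of JAK signalling, *Socs1* and *Socs3*, were above their d0 level in every group from d1 to d12c. *Socs1* had 16.7 CPM at d0, 42.9 CPM at d1 and 174 CPM at d3, then between 50.8 CPM (d12c) and 117 CPM (d12) until d12c, and 12.5 CPM at d20. *Socs3* had 5.20 CPM at d0, 52.1 CPM at d3, 252 CPM at d12 and 141 CPM at d20. Both genes also answer signals other than interferon.

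Genes of viral nucleic acid sensing were few at the filter. At d12 against d0, 3 of 9 compared were higher, *Zbp1*, *Ticam1* and *Mb21d1*, and 3 were lower, *Tmem173*, *Myd88* and *Mavs*, where 19.3% of all genes were higher and 19.3% lower. *Zbp1*, which encodes a sensor of Z-form nucleic acid, had no UMI at d0 and a mean of 11.2 CPM at d12. *Tmem173*, which encodes STING, had 10.3 CPM at d0, 1.96 CPM at d12 and no UMI at d20. Class II genes, known from antigen-presenting cells, summed to between 5.02 and 27.6 CPM over the groups. The class II gene *H2-Ab1* had 0.0222 CPM at d0 and 7.61 CPM at d12.

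Over the 12 groups the profile of the class I sum (*H2-K1*, *H2-D1* and *B2m*) was most like that of *Cyp1b1*, with a Pearson correlation of 0.920 among 10373 genes reaching 10 CPM in some group. *Tmcc3* (0.916), *Tgfa* (0.912), *Pdlim1* (0.909) and *Dbndd2* (0.907) followed. Most of this sum was *B2m*, for example 1239.5 of 1423 CPM at d0 and 1061 of 1614 CPM at d20. The sum of *Irf7*, *Ifit1*, *Ifit3*, *Isg15* and *Bst2* was most like *Irf9* (0.940), which encodes the DNA-binding part of the interferon complex, then *Pim1* (0.937), *Timp3* (0.909), *Edn2* (0.904) and *Crhbp* (0.893). These values describe 12 points, most of them low, and the best of many genes are high by selection.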

How the data were processed

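Single-cell RNA-seq of the C6FAE course was used. Cells were picked by hand, and the authors sorted the reads into cells by barcode, mapped them to mm9 mouse transcripts after trimming and counted each UMI once. The deposited values are unscaled whole-number counts of UMIs. Which aligner and which filter on cells were used is not given in the sources used here. The table held 23201 gene entries, of which 4 with repeated names were left out, and 92 spike-in RNAs, which made up 5.43% of the counts of the cells used and were left out of totals. Doublets were not called.

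The 9 genes, the gene and marker lists and the thresholds were chosen with earlier results of these data known. The analysis used the 670 of 808 cells in which 4000 or more genes were detected, with 17633 to 6004864 UMIs each. CPM of each cell were averaged over a group, and differences were taken of log2(mean + 1) among genes with a mean of at least 5 CPM in either group. A gene at 0 UMIs in a group was given a limit of 3 UMIs over the group for folds. This limit was scaled to the summed UMIs of the group and set against a mean of cell CPM, so such folds are approximate. A share of 0 cells was read as allowing up to 3 cells. Genes named are the 9, fixed receptor, signalling, presentation and proteasome genes, the 3 genes of each list with the largest difference in either direction at d12 against d0 and at d20 against d12, and the 5 genes with the most similar profile to either sum. Genes outside this rule, such as *H2-T10*, *H2-T23*, *Oasl1*, *Ifitm2*, *Ifitm3* and the genes making up counts of 5 or fewer, were chosen after their values were seen.

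No test between groups was made because the cells could not be assigned to a sample or a batch. Alternatives covered the filters, the averaging, the pseudocount, the scaling (edgeR 4.0.16 TMM and DESeq2 1.42.0 size factors on summed counts, in R 4.3.3), thinning to 50000 UMIs, the highest cell of each gene and cells numbered 1 to 48. The comparison of d12c cells by number, its repeats without cells 10 and 17 and detection at 20 CPM were added after seeing the data. Positions come from GENCODE M1 on NCBIM37 and promoters from RefSeq on GRCm38.p6. The comparison was tested on simulated data, and scipy 1.17.1, pandas 2.3.3 and numpy 2.4.6 were used under Python 3.11.15.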

Additional observations from a re-analysis of the deposited data

How the results depend on the processing

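No paired analysis was possible because the cell names carry no batch, and for the same reason no replicate could be left out. The 45 log2 differences of the 9 genes in 5 comparisons were recomputed under 11 other settings. In 4 of the 495 values a called difference changed sign: *Isg15* at d1 against d0 became 0.14 with summed UMIs, 0.11 with TMM and 0.14 with DESeq2 size factors, and *Psmb8* at d20 against d0 became 0.024 in cells numbered 1 to 48. For *Isg15* the summed counts give deep cells more weight, and for *Psmb8* 3 of the 4 d0 cells with at least 20 CPM carry numbers above 48. Counts of genes past 2-fold moved by over 1.5 times as follows. At d1 against d0, 6 lower genes became 3 with a pseudocount of 10, 3 in cells numbered 1 to 48 and 2 with the mean of log2(CPM + 1). At d8 against d0, 4 lower genes became 1 with a pseudocount of 10 and 1 with the mean of log2 values, and 1 higher gene became 3 in cells numbered 1 to 48. At d12 against d0, the 1 lower gene became 0 with no filter on cells, summed UMIs, a pseudocount of 10, TMM, DESeq2 size factors or the mean of log2 values, while 5 or 6 genes were higher under every setting. At d20 against d0, 5 lower genes became 3 with no filter on cells, 1 with a pseudocount of 10, 3 without the highest cell of each gene and 0 with the mean of log2 values, and 1 higher gene became 2 in cells numbered 1 to 48 and with the mean of log2 values. At d20 against d12, between 4 and 6 genes were lower and none was higher under every setting. The mean of log2 values gives single high cells little weight, and a pseudocount of 10 shrinks genes below about that level, so the lower calls of sparse genes rest on few cells with high levels. With the mean of log2 values, the share of higher genes among all genes past 2-fold went from 45.4% to 80.9% at d1 against d0, from 54.8% to 37.6% at d20 against d0 and from 57.3% to 40.1% at d20 against d12. In d12c by running number, 4 to 7 genes were lower and none was higher under the 5 other settings run. A gene with no UMI at d20 was below detection at that depth, which does not show that it is absent.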
